A study of Mus musculus with 6 samples.

Results

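Besides serving melanin synthesis, tyrosine can be broken down or turned into catecholamines, and the hydroxylase that starts the latter route depends on a pterin cofactor. The 9 genes described here encode enzymes of these routes and of the cofactor's synthesis and recycling, and were chosen by name: Hpd, Hgd, Gstz1 and Fah of tyrosine breakdown, Th and Ddc of catecholamine synthesis, and Gch1, Qdpr and Pcbd1 of the tetrahydrobiopterin cofactor, 9 of 20788 genes that any library listed. Tyr-H cells expressed 3.97-fold more Gch1 than Tyr-L cells, Ddc was near its detection floor and lower in Tyr-H by a call that 8 of 16 alternative settings did not keep, Gstz1 was slightly higher in Tyr-H, and for Fah and Qdpr no difference passed the test. Hpd, Th and Pcbd1 were listed in none of the 6 libraries, and Hgd was above its detection floor in 1 library.

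B16 is a melanoma cell line of the C57BL/6 mouse. Both groups, Tyr-L (low tyrosinase activity, n = 3 libraries) and Tyr-H (high tyrosinase activity, n = 3 libraries), are subclones of it, picked as colonies grown from cells plated thinly and sorted by how they use tyrosine. All cells grew in low-glucose DMEM with serum and without any treatment that differed between the groups. Messenger RNA was sequenced, and the authors deposited FPKM (fragments scaled to transcript length and to the mapped fragments of the library) for each library. Whether replicate libraries represent separate cultures, or more than 1 subclone, is stated neither in the labels nor in the methods, so the p-values measure the spread between these libraries, which may be technical.

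In the liver, tyrosine loses its amino group and is then opened and cleaved to fumarate and acetoacetate by the enzymes that Hpd, Hgd, Gstz1 and Fah encode, in that order. In neurons and the adrenal medulla, tyrosine hydroxylase (Th) makes L-DOPA from tyrosine and Ddc removes its carboxyl group to give dopamine. Tyrosine hydroxylase, like the tryptophan hydroxylases, needs tetrahydrobiopterin, which Gch1 starts to make from GTP and which Pcbd1 and Qdpr regenerate after each turn. Pigment cells instead oxidise tyrosine to melanin with tyrosinase, the product of Tyr.

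The libraries listed between 16813 and 17413 genes. Their depth was estimated at 18800000 to 21400000 fragments by taking low FPKM values within a fixed window as 1 fragment each. The 6 libraries differed within a group by a median absolute log2 difference of 0.095 to 0.114 and between groups by 0.315 to 0.371. Tyr, which should follow the labels, had a mean of 10.0 ± 0.602 FPKM in the Tyr-L and 21.3 ± 2.14 in the Tyr-H libraries (SD, n = 3 each), and no Tyr-H value was below a Tyr-L value. All 10 melanocyte lineage markers were listed in every library, and their summed level was 7580 to 7910 FPKM in Tyr-L and 5650 to 6200 FPKM in Tyr-H. Of 8 hepatocyte markers 6 were unlisted, Alb, Fgb, Serpina1a, Tat and Ttr among them, with sums of 0 in Tyr-L and at most 0.0813 FPKM in Tyr-H. Of 7 markers of catecholamine neurons and chromaffin cells Chga was unlisted and 2 were in all libraries, with sums of 76.1 to 81.1 FPKM in Tyr-L and 54.7 to 58.0 FPKM in Tyr-H. Dbh and Slc18a2, both on that list, were at most 0.327 and 0.92 FPKM in any library. The sums thus came almost wholly from other markers of the list. The leukocyte list had 5 of 6 unlisted, Ptprc among them, and Cd68 alone gave 3.06 to 3.92 FPKM in Tyr-L and 4.0 to 4.45 FPKM in Tyr-H. Fibroblast sums were 2.26 to 2.52 and 2.06 to 2.38 FPKM, endothelial sums at most 0.0472 and 0.054 FPKM, and keratinocyte sums at most 0.0349 and 0.0321 FPKM in Tyr-L and Tyr-H.

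Of the 9 genes, 5 passed the filter of a mean of 0.1 FPKM over the 6 libraries and were tested with limma among 14336 genes. A gene was called when its Benjamini-Hochberg adjusted p was at most 0.05 and its level changed at least 2-fold. By that rule 1 of the 5 was called higher in Tyr-H (Gch1) and 1 lower (Ddc), where 2.96% of all tested genes were called higher and 5.78% lower. By the adjusted p alone, with no threshold on the fold, 3 of the 5 passed (Gch1, Gstz1 and Ddc), against 57.8% of all tested genes. The values of the groups did not overlap for the same 3 genes, as for 64.0% of all tested genes, so neither count stands apart from the background. Ddc passed the filter only through Tyr-L, the group where it was higher, so its call adds no support to a count over the 5, and Gch1 was the other call. The median log2 fold change of the 5 was 0.07, beside -0.15 over all tested genes. A fold change here is on the log2(FPKM + 0.1) scale, which understates the change of genes with low values. In RNA from a whole culture, fewer cells that express a gene and less of its RNA per cell cannot be told apart.

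**Figure D1:**
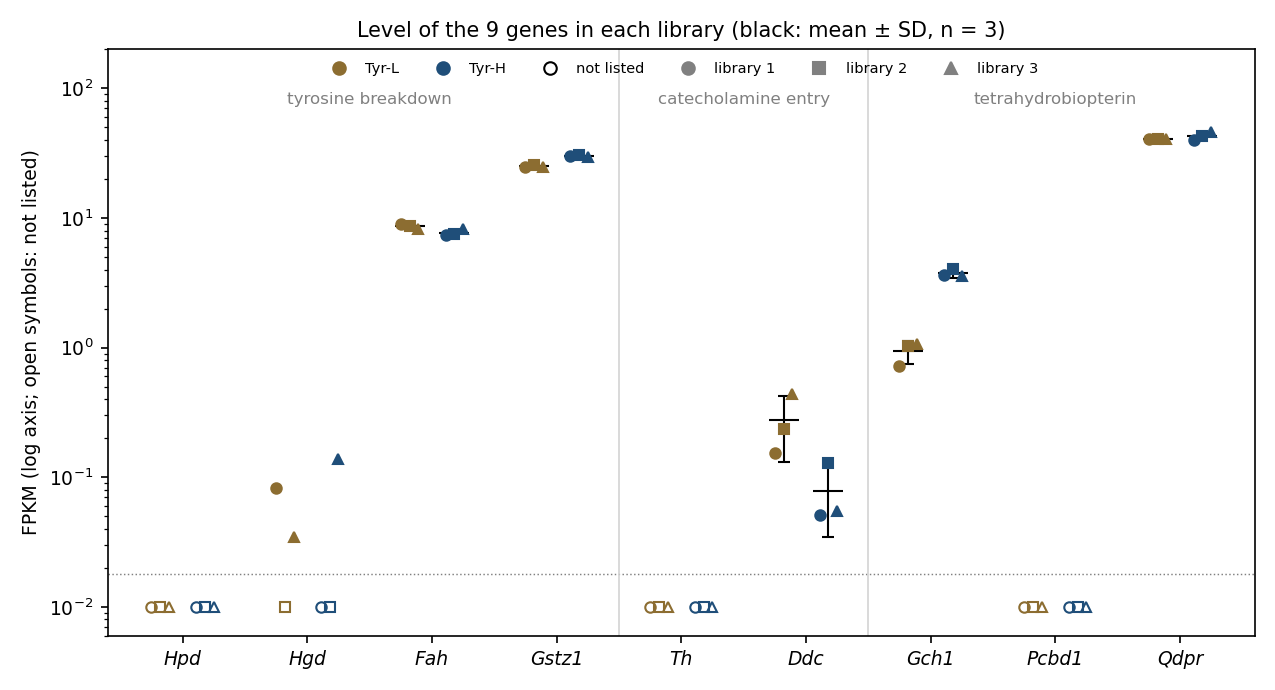
FPKM of the 9 genes (log axis) in the 3 Tyr-L and 3 Tyr-H libraries, with black marks for the mean and SD (n = 3) where all 3 libraries list the gene and open symbols on the bottom line for libraries that do not list it. Gch1 lies at 0.726 to 1.07 FPKM in Tyr-L and 3.54 to 4.05 in Tyr-H, while Hpd, Th and Pcbd1 have open symbols alone.

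Gch1 encodes GTP cyclohydrolase 1, the entry enzyme of tetrahydrobiopterin synthesis. Its gene (ENSMUSG00000037580) lies on the minus strand of chr14:47153895-47189413 in GRCm38. The 250 bases upstream of its start are shown because this was the gene of the 9 with the largest change, and the promoters of Ddc, the other called gene, stand beside it. The sequences are from RefSeq (GRCm38.p6), read along the gene's strand from 5′ to 3′, and capitals mark a CCAAT box or its reverse complement. The first is chr14:47189414-47189663, the others chr11:11898145-11898394 and chr11:11890409-11890658, all minus strand.

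Gch1: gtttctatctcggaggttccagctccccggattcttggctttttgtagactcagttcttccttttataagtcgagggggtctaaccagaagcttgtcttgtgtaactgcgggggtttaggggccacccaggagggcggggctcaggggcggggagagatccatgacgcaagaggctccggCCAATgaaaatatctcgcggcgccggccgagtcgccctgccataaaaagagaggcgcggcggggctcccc
Ddc, upstream start: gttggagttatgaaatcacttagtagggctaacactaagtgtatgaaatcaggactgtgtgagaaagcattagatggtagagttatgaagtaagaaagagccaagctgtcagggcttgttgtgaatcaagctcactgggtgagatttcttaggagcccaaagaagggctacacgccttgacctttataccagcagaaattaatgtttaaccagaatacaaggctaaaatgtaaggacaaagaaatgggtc
Ddc, downstream start: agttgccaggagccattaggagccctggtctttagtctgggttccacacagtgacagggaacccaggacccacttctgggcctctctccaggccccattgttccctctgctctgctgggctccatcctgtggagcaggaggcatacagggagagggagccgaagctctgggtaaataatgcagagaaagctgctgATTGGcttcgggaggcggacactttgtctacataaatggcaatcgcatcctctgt

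The Gch1 window had a CCAAT box beginning 70 bases before the start and a GC content of 59.2%, beside a median of 52.4% over 32851 RefSeq promoters cut to the same 250 bases. The upstream start of Ddc had no CCAAT and 40.8% GC, and the downstream start had the box on the other strand, 55 bases before the start, with 56.0% GC. All 9 genes matched the RefSeq table, with 11 promoters. CCAAT, a motif chosen after the values were seen, was found on either strand in 6 of the 11 and in 33.85% of all promoters. CACGTG, the E-box, and CATGTG, the core of the M-box, which MITF binds, were in none of the 11, against 6.02% and 12.25% of all promoters. TGATGCAA, the ATF4 element, was also in none, against 0.79%. TGACTCA, the AP-1 site, was found for Hpd (4.46% of all) and TGACGTCA, the cAMP response element, also chosen after the values were seen, for Th (1.55% of all). All motifs were searched on both strands. A match is a description of letters in the window.

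Gch1 was at 0.726, 1.03 and 1.07 FPKM in Tyr-L libraries 1, 2 and 3, and at 3.63, 4.05 and 3.54 FPKM in Tyr-H libraries 1, 2 and 3. Every Tyr-H library was above every Tyr-L library. Its mean rose from 0.94 ± 0.187 to 3.74 ± 0.275 FPKM (SD, n = 3), a log2 fold change of 1.90 with a standard error of 0.15 and a 95% interval of 1.55 to 2.25 (limma, adjusted p = 9e-06). Among all tested genes it ranked 105 from the top by log2 fold change. The values correspond to an estimated 50 to 76 fragments per library in Tyr-L and 241 to 304 in Tyr-H, well above the floor of 3 fragments (0.04 to 0.0455 FPKM). Gch1 was called under each of the 17 alternative settings, with log2 fold changes from 1.29 to 2.07. The gene overlaps the processed pseudogenes Gm49134 and Gm18811, both unlisted.

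The genes whose pattern over the 6 libraries was most like that of Gch1 on the log2 scale were Ppp2r2d (Pearson r = 0.9993), Lncenc1 (0.9988) and Rab31 (0.9987). Ppp2r2d was 22.7 to 24.3 FPKM in Tyr-L and 29.9 to 30.5 in Tyr-H, a much smaller step than that of Gch1. With 6 libraries in 2 groups such values are common, and 1122 of 14335 other tested genes (7.8%) had an r of at least 0.95.

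Qdpr encodes dihydropteridine reductase, which returns the spent cofactor to tetrahydrobiopterin, and it had the highest level of the 9. The gene (ENSMUSG00000015806) is at chr5:45434021-45450236, minus strand. It was at 40.9, 40.5 and 40.5 FPKM in Tyr-L, and at 39.6, 42.6 and 45.7 FPKM in Tyr-H. The Tyr-H libraries spread around the Tyr-L values, with library 1 lowest and library 3 highest of the 6. The log2 fold change was 0.07 (standard error 0.05, 95% interval -0.05 to 0.18, limma adjusted p = 0.29). The exact permutation p was 0.4, where 0.1 is the smallest that 3 libraries against 3 can give. Its sign turned to -0.03 when each library was rescaled to a total of 1000000 FPKM, and it passed the adjusted p with median ratio scaling (0.22, limma adjusted p = 0.0041) and quantile normalization (0.16, limma adjusted p = 0.02).

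Pcbd1 encodes the carbinolamine dehydratase that acts before Qdpr in recycling. The gene (ENSMUSG00000020098, chr10:61089331-61094324, plus strand) was unlisted in all 6 libraries, where 3 fragments would give 0.178 to 0.202 FPKM. Its longest transcript has 789 nt, and 52.7% of protein-coding genes with a longest transcript of 700 to 1500 nt were unlisted in every library. The share was 75.2% for shorter and 24.1% for longer ones. Whether length itself accounts for these shares was not tested. Being unlisted need not mean a level of 0, although 0 of 75 ribosomal protein genes were unlisted. Its paralog Pcbd2, which shares that activity, had 9.41 ± 0.266 (Tyr-L) and 8.46 ± 0.276 (Tyr-H) FPKM (log2 fold change -0.15, standard error 0.06, limma adjusted p = 0.044). That difference was 0.0 after quantile normalization (limma adjusted p = 0.97).

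The other 6 genes of tetrahydrobiopterin synthesis and regulation were all tested, and by the adjusted p 2 were higher, 2 lower and 2 passed in neither direction, with a median log2 fold change of -0.24. Spr, sepiapterin reductase of the last step, rose from 78.6 ± 1.09 to 90.9 ± 3.33 FPKM (log2 fold change 0.21, standard error 0.04, limma adjusted p = 0.00085). Akr1b3, an aldo-keto reductase that can reduce the same intermediates, rose from 99.1 ± 2.2 to 128 ± 7.38 FPKM (0.37, standard error 0.04, limma adjusted p = 8.3e-05). Cbr1, a carbonyl reductase with a like role, fell from 9.45 ± 0.11 to 4.53 ± 0.332 FPKM (log2 fold change -1.05, standard error 0.07, limma adjusted p = 3.6e-06) and was the 1 gene of the 6 that was called. It missed the 2-fold limit without Tyr-H library 1 (-0.99), with median ratio scaling (-0.90), with quantile normalization (-0.88) and with a pseudocount of 1 (-0.92). Pts, of the step after Gch1 (22.1 ± 2.21 and 23.9 ± 2.53 FPKM, limma adjusted p = 0.31), and Gchfr, the feedback regulator of Gch1 (log2 fold change -0.60, limma adjusted p = 0.12), did not pass.

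**Figure D2:**
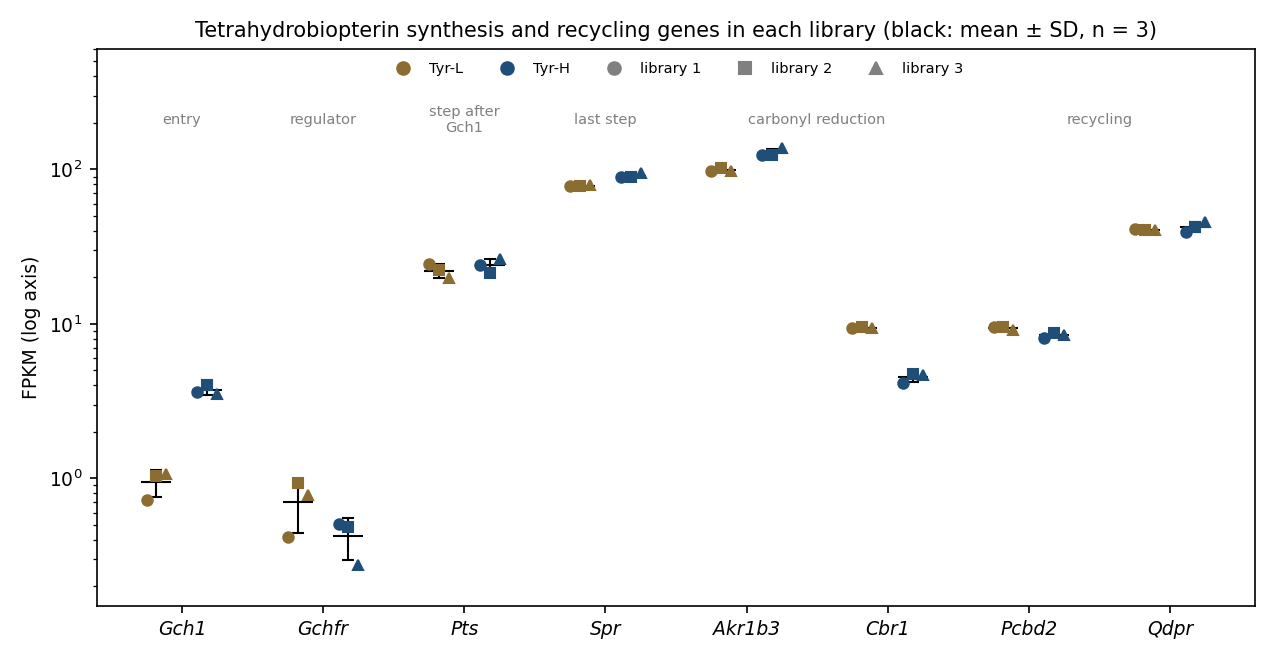
FPKM (log axis) of Gch1, Qdpr and other genes of tetrahydrobiopterin synthesis and recycling in each library, in order of their steps, with the mean and SD (n = 3) in black. The groups do not overlap for Gch1, Spr and Akr1b3 (higher in Tyr-H) or for Cbr1 and Pcbd2 (lower), and overlap for Gchfr, Pts and Qdpr.

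Gstz1 encodes maleylacetoacetate isomerase, which prepares the substrate of Fah. The gene (ENSMUSG00000021033, chr12:87147165-87164723, plus strand) was at 24.7, 25.7 and 24.9 FPKM in Tyr-L, and at 30.0, 30.4 and 29.6 FPKM in Tyr-H. All Tyr-H libraries were above all Tyr-L libraries. The mean rose from 25.1 ± 0.535 to 30.0 ± 0.417 FPKM (SD, n = 3), 1.19-fold, with a log2 fold change of 0.26, a standard error of 0.04 and a 95% interval of 0.17 to 0.34 (limma, adjusted p = 0.00033). It passed the adjusted p under all 17 alternatives (0.16 to 0.41) and reached 2-fold in none. Gstz1 overlaps Pomt2 on the opposite strand, which was 9.61 to 10.8 FPKM in Tyr-L and 11.2 to 11.5 FPKM in Tyr-H (log2 fold change 0.18, limma adjusted p = 0.027), and the part of shared reads in the values was not tested.

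Fah, fumarylacetoacetate hydrolase, catalyses the last step of tyrosine breakdown. The gene (ENSMUSG00000030630, chr7:84585159-84606722, minus strand) was at 8.95, 8.68 and 8.15 FPKM in Tyr-L, and at 7.33, 7.51 and 8.20 FPKM in Tyr-H. Tyr-H library 3 was above Tyr-L library 3, so the groups overlapped. The log2 fold change was -0.16 (standard error 0.07, 95% interval -0.31 to -0.01, limma adjusted p = 0.069; exact permutation p = 0.2). It was -0.26 after rescaling to a total of 1000000 FPKM (limma adjusted p = 0.0074), -0.21 without Tyr-H library 3 (limma adjusted p = 0.035) and 0.0 after quantile normalization.

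Hgd and Hpd, which act before Gstz1, were near or under the limit of these libraries. Hgd, homogentisate dioxygenase (ENSMUSG00000022821, chr16:37580153-37632020, plus strand), was at 0.0832 FPKM, unlisted and 0.0349 FPKM in Tyr-L, and unlisted, unlisted and 0.138 FPKM in Tyr-H. An estimated 3, 0 and 1 fragments in Tyr-L and 0, 0 and 5 in Tyr-H stood behind these values, and 3 fragments would give 0.0824 to 0.0938 FPKM. Tyr-H library 3 alone was above its floor, and a difference between the groups was not detectable at this depth (exact permutation p = 1.0). Hpd, 4-hydroxyphenylpyruvate dioxygenase (ENSMUSG00000029445, chr5:123171807-123182727, minus strand), was unlisted in all 6, with a floor of 0.0998 to 0.114 FPKM. Its longest transcript, of 1404 nt, is in the same length class as that of Pcbd1. Hpd overlaps Psmd9 on the opposite strand (mean 15.593 FPKM) and Gm26745 on the same strand (mean 0.004 FPKM). The effect of this overlap on its value was not tested. Tat, the liver's tyrosine aminotransferase, and Slc16a10, an aromatic amino acid transporter, were also unlisted.

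Of the 8 other genes of tyrosine transamination and breakdown, 6 were tested, 2 were higher by the adjusted p and none lower, none was called, and the median log2 fold change was 0.2. Got1, the cytosolic aspartate aminotransferase, rose from 89.1 ± 1.9 to 142 ± 1.86 FPKM (log2 fold change 0.67, standard error 0.03, limma adjusted p = 4.7e-07). Got2, its mitochondrial counterpart, rose from 163 ± 2.86 to 199 ± 4.58 FPKM (0.29, standard error 0.03, limma adjusted p = 5.8e-05). Both enzymes can also take tyrosine as a substrate, and their main role is in aspartate and glutamate metabolism.

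Th, tyrosine hydroxylase (ENSMUSG00000000214, chr7:142892752-142931128, minus strand), was unlisted in all 6 libraries, with a floor of 0.0719 to 0.0818 FPKM. Ddc, aromatic L-amino acid decarboxylase (ENSMUSG00000020182, chr11:11814101-11898144, minus strand), was at 0.154, 0.237 and 0.436 FPKM in Tyr-L, and at 0.0515, 0.129 and 0.0547 FPKM in Tyr-H. Every Tyr-L library was above every Tyr-H library, and Tyr-H libraries 1 and 3 were under the floor of 0.0695 to 0.0791 FPKM. The mean fell from 0.276 ± 0.145 to 0.0784 ± 0.0439 FPKM (SD, n = 3), with a log2 fold change of -1.03, a standard error of 0.36 and a 95% interval of -1.86 to -0.21 (limma, adjusted p = 0.036). The 3 libraries of each group held an estimated 33 fragments in Tyr-L and 10 in Tyr-H, a ratio of 3.37 with an exact 95% interval of 1.62 to 7.66 that covers counting error only. The mean was under the filter in Tyr-H alone, and with no filter the log2 fold change was -1.03 (limma adjusted p = 0.042). The call was lost in 8 of 16 alternatives. These included leaving out Tyr-L library 2 (-1.08, limma adjusted p = 0.07), Tyr-L library 3 (-0.74, limma adjusted p = 0.14), Tyr-H library 1 (-0.93, limma adjusted p = 0.092) or Tyr-H library 3 (-0.94, limma adjusted p = 0.091). Ddc overlaps the antisense gene 1700042O10Rik, listed at 0.0475, 0 and 0.0546 FPKM in Tyr-L, and at 0.0471, 0.204 and 0.0499 FPKM in Tyr-H.

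Of the 11 other catecholamine genes, 6 were tested and 3 were higher by the adjusted p, 1 of them called, with none lower and a median log2 fold change of 0.17. The called gene was Dbh, dopamine beta-hydroxylase, which makes noradrenaline from dopamine. It was at 0.0176, 0.032 and 0 (unlisted) FPKM in Tyr-L, and at 0.117, 0.327 and 0.151 FPKM in Tyr-H. All 3 Tyr-L values were under the floor of 0.0549 to 0.0625 FPKM and all 3 Tyr-H values above it. An estimated 3 fragments in Tyr-L and 31 in Tyr-H gave a ratio of 10.1 (exact 95% interval 3.16 to 51.8), and the fitted log2 fold change was 1.30 (standard error 0.38, limma adjusted p = 0.015). Dbh passed the filter only through Tyr-H, the group where it was higher, so the fitted call is given as a description. Without Tyr-H library 2 or without Tyr-H library 3 it fell under the filter and was not tested. Slc18a1, a vesicular monoamine transporter, had a mean of 0.404 FPKM in the Tyr-L and 0.894 in the Tyr-H libraries (log2 fold change 0.98, limma adjusted p = 0.0024), and it lies across Atp6v1b2, a gene with a mean of 101.006 FPKM on the opposite strand. Maoa, the monoamine oxidase that degrades catecholamines, rose from 36.6 ± 0.365 to 43.1 ± 3.54 FPKM (0.23, standard error 0.06, limma adjusted p = 0.0064). Pnmt, which makes adrenaline, and Maob were unlisted.

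**Figure D3:**
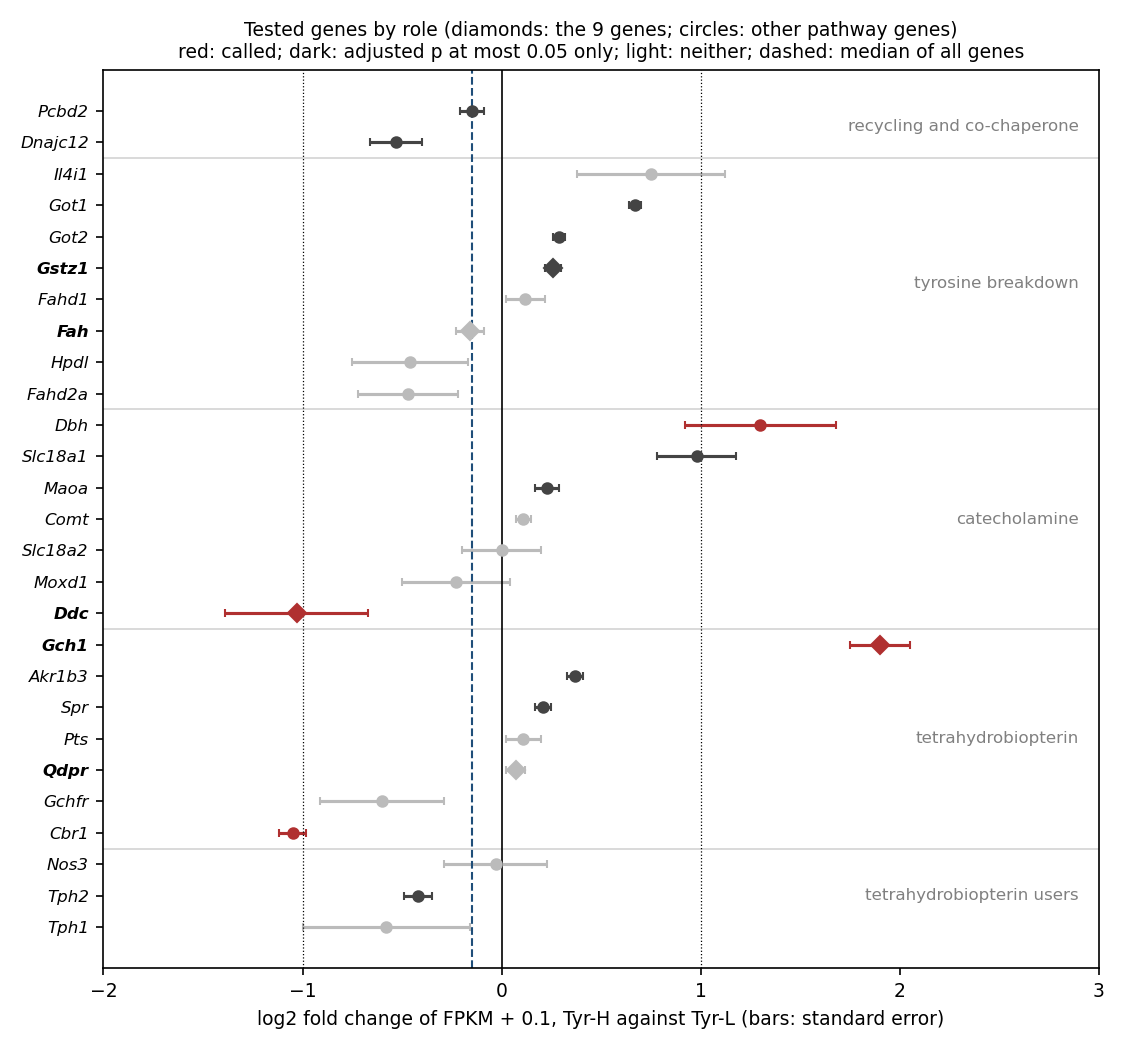
Log2 fold change of FPKM + 0.1, Tyr-H against Tyr-L, with its standard error, for the 5 tested genes of the 9 (diamonds) and other tested genes of the same routes (circles), grouped by role. Gch1 lies furthest to the right at 1.90, Cbr1 and Ddc lie near -1, and the dashed line is the median of all tested genes at -0.15.

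Tetrahydrobiopterin is used by few enzymes, and of 6 listed here as users beside tyrosine hydroxylase 3 were under the filter. Dnajc12, a co-chaperone of the aromatic amino acid hydroxylases, fell with a log2 fold change of -0.53 (limma adjusted p = 0.0077). Of the 3 tested users 1 was past the adjusted p. This was Tph2, a tryptophan hydroxylase of serotonin synthesis, which fell from 6.30 ± 0.245 to 4.66 ± 0.0567 FPKM (log2 fold change -0.42, standard error 0.07, limma adjusted p = 0.00058).

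Over all 34 other genes of these routes, 23 were tested, with 1 called higher (Dbh) and 1 lower (Cbr1), 7 higher and 5 lower by the adjusted p, and a median log2 fold change of 0.0. Dbh passed the filter only through Tyr-H, where it was higher, so its call adds no support to these counts. Over all tested genes 2.96% were called higher, 5.78% were called lower and 57.8% passed the adjusted p, so the share of these genes that passed was not above the background. In the melanin route the 3 enzymes did not move together. Tyr rose with a log2 fold change of 1.08 (limma adjusted p = 4e-06), and the cells had been sorted by its activity. Dct, which acts on dopachrome, fell from 1450 ± 23.8 to 930 ± 51.6 FPKM (-0.64, limma adjusted p = 4.2e-06). Tyrp1, which acts after Dct, had 3670 ± 101 (Tyr-L) and 3120 ± 138 (Tyr-H) FPKM (-0.23, limma adjusted p = 0.0028), a difference that did not pass with median ratio scaling (-0.08, limma adjusted p = 0.23). Mitf, the pigment cell transcription factor, was 86.6 to 98.2 FPKM in Tyr-L and 23.7 to 26.8 FPKM in Tyr-H (log2 fold change -1.85, limma adjusted p = 1e-07). For the proteins, the authors reported more Tyrosinase, TYRP1 and TYRP2 (the product of Dct) in Tyr-H cells, and no difference in MITF. The values here are of RNA, so the 2 measures are not alike.

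By level per length in FPKM, the order in both groups was Qdpr, Gstz1, Fah, Gch1, Ddc and Hgd. No library of a gene from Qdpr to Ddc reached the values of its neighbour in that order within the same group. Ddc and Hgd overlapped in Tyr-H, at 0.0515 to 0.129 and 0 to 0.138 FPKM, and did not in Tyr-L.

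**Figure D4:**
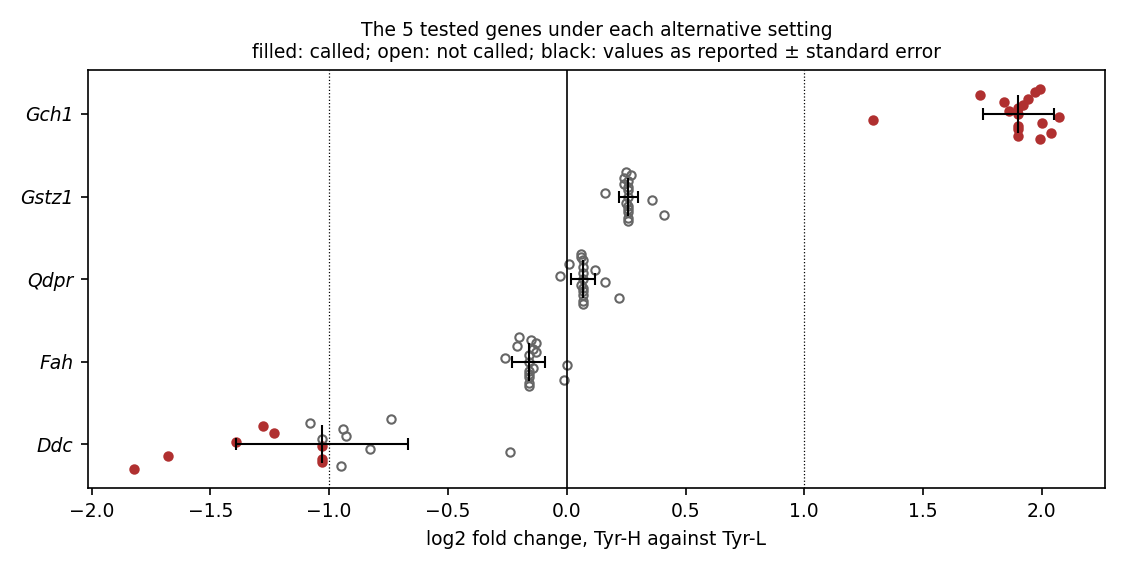
Log2 fold change (Tyr-H against Tyr-L) of the 5 tested genes under each alternative setting, filled where called and open where not, with the reported value and its standard error in black. Gch1 is filled in all 17 settings, Ddc in 8 of 16, and Gstz1, Qdpr and Fah in none.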

How the data were processed

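mRNA libraries of Tyr-L and Tyr-H cells, 3 each, were grouped by their labels. The authors deposited 1 table of FPKM values per library. Submitters' processing notes name Trimmomatic, HISAT2, HISAT and GRCm38.p6. The quantifier is not given in the sources used here. Unlisted genes were taken as 0. Depth was estimated from low values of genes with 1 transcript of at least 1500 nt. The median of FPKM times length in kb between 0.03 and 0.07 was taken as 1 fragment. This fixed window limits the depth that could be found. The floor is what 3 fragments would give the longest transcript. Such floors and intervals are approximate and cover counting error only.

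Log2(FPKM + 0.1) was fitted with limma 3.58.1 in R 4.3.3 (lmFit, eBayes with trend, 1 coefficient, Benjamini-Hochberg adjustment) for 14336 genes averaging 0.1 FPKM or more, two-sided, and tested on simulated data. Single genes had two-sided exact permutation tests. Gene models came from GENCODE M21, in which 20709 of 20788 identifiers were found. Other steps used Python 3.11.15, scipy 1.17.1 (exact intervals), pandas 2.3.3, numpy 2.4.6 and, for plots, matplotlib 3.10.9.

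Named were the 9 genes, the melanin enzymes, other pathway genes called or past the adjusted p with a mean of at least 5 FPKM, those unlisted throughout, overlapping genes, and the 3 genes most like Gch1. Dnajc12, Slc18a1, Slc18a2, Pts, Gchfr, Mitf and Cd68 were added after their values were seen. The members and lists were chosen with earlier results of these data known. A few genes of these lists are counted but not reported here by name. Alternatives were other pseudocounts, filters, scalings and variance estimates, fold of group means, the replicate number as a block, and each library left out.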

Additional observations from a re-analysis of the deposited data

How the results depend on the processing

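Of the counts of genes called or past the adjusted p, 38 alternatives gave the same count within 1.5 times and 12 did not. Of the 9 genes, 3 passed the adjusted p as reported and 2 to 4 in the alternatives, all within that limit. With median ratio scaling or quantile normalization the count of 3 was kept, but Ddc was lost and Qdpr gained. Without Tyr-H library 3, Ddc was lost and Fah gained. The 9 genes had 2 calls as reported and 1, Gch1, with a pseudocount of 1, a mean of at least 1 FPKM, median ratio scaling, quantile normalization or variance not moderated. Leaving out each library gave 1 to 2 calls, with 1 without Tyr-L library 2, Tyr-L library 3, Tyr-H library 1 or Tyr-H library 3. Among the other pathway genes, 2 calls became 0 with a pseudocount of 1 and 1 when the mean had to reach 1 FPKM, and leaving out a library gave 1 to 3, with 1 without Tyr-H library 3. With median ratio scaling or quantile normalization that count was again 2, but Cbr1 was lost and Slc18a1 gained. The log2 fold change of Qdpr reversed to -0.03 after rescaling to a total of 1000000 FPKM. Other values of single genes, and the count of genes detected, did not reverse and kept their side of the call in 77 alternatives, although Fah went to 0.0 with quantile normalization and -0.01 with median ratio scaling, and lost the call in 8, all for Ddc. The cause was not tested.

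Over all genes, 1254 calls became 388 with a pseudocount of 1 and 640 with a mean of at least 1 FPKM. Scaling moved the split of 425 higher and 829 lower to 538 and 590 (median ratio), 599 and 508 (quantile) or 403 and 1175 (rescaled total), while the median log2 fold change of all genes went from -0.15 to -0.01, -0.02 and -0.25. The replicate numbers did not pair the libraries (correlations of same-numbered deviations 0.009, 0.034 and -0.173). With the replicate block 2 of the 9 genes were called, 3 passed the adjusted p and 1258 genes were called in all. Of the 9 genes, 5 were above the floor in all libraries of a group, 6 were listed at any value and 4 had a group mean of at least 1 FPKM.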
